A study of Mus musculus with 6 samples.

Results

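The immunoglobulin kappa variable (Igkv) genes were taken as every gene whose symbol begins with Igkv and that GENCODE M21, on mouse build GRCm38, classes as a V gene. This gave 100 of the 53379 genes in the count files. Another 60 Igkv genes are annotated as pseudogenes and were kept apart. The RNA came from splenic follicular helper T (Tfh) cells of 6 female mice, 3 control (CTL) and 3 Prdm1-CKO, collected on day 7 after NP-CGG in CFA was injected. Tfh cells were sorted as live (FVD-) TCRb+ CD4+ CXCR5+ PD1+ cells, a gate that asks for TCRb and CD4, which B cells lack, and names no B cell marker to be negative. The purpose of the RNA-seq was to compare Tfh cells between the genotypes.

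Prdm1-CKO mice were Prdm1 fl/fl and CD11c-CRE+, so that the gene for BLIMP-1 is deleted in dendritic cells with high CD11c and not by design in T cells. CTL mice were either Prdm1 fl/fl without CRE or Prdm1+/+ with CRE, with no label to tell which of these genotypes a given CTL mouse had. The methods give an age of 6 to 8 weeks for immunized females and either an i.p. or a s.c. injection, without a route for each mouse. In the labels the CKO group is a KO by title and a KD by genotype. Each library is numbered as 1 mouse, and p-values measure only the spread between these libraries. Total counts lay between 7147601 and 16973392 per library. CTL replicate 2 stood apart, since its log2 CPM correlated across genes at 0.875 on average with the other libraries, where the rest reached 0.923 to 0.944, so results that lean on it are also given without it. Prdm1 itself had 422, 253 and 186 counts in CTL and 536, 303 and 451 in Prdm1-CKO Tfh, which checks nothing about deletion in dendritic cells. The defining Tfh genes Cd4, Cd3e, Cxcr5, Pdcd1, Bcl6 and Icos were counted in all 6 libraries, with the lowest value at 557 for Bcl6 in CTL replicate 2.

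An antibody molecule pairs heavy chains with light chains, and most mouse light chains are kappa. A developing B cell builds its kappa gene by joining 1 Igkv gene to 1 Igkj segment, and RNA splicing then links the joined exon to the constant exon Igkc. A B cell clone thus generally uses a single V gene, which encodes most of the antigen-binding domain of the light chain, and plasma cells carry the largest amounts of this RNA. T cells normally leave the kappa locus unjoined.

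All 100 genes lie on chromosome 6 between 67555497 and 70704177, a stretch of 3148.7 kb that ends 18.4 kb before Igkj1. They belong to 20 families, numbered by the first part of the symbol. Of these genes, 38 read in the direction of Igkc and 62 in the opposite direction. Their annotated exons add up to between 338 and 501 bases, with a median of 362. Only Igkv2-137 shares exonic bases with another gene, Gm42889.

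The V exons of the genes that the results turn on, or their last 300 bases where the exon is longer, are given here 5′ to 3′ on the coding strand, from the GENCODE M21 transcripts, with GRCm38 positions. The capitals run from the last in-frame cysteine codon, where framework 3 ends, to the end of the exon, and the bases after that codon are what the V gene supplies of the third antigen-binding loop (CDR3). The first 4 were the leading genes by mean share of Igkv counts or near copies of such a gene, and the last 2 did not overlap between the groups.
Igkv1-135 (chr6:67610209-67610508, + strand): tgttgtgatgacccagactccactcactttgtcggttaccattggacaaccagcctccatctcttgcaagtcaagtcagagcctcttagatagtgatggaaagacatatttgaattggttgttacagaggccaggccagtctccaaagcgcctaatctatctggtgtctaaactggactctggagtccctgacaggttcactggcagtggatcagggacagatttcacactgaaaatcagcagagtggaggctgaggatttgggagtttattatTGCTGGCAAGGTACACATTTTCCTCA
Igkv6-15 (chr6:70406469-70406766, - strand): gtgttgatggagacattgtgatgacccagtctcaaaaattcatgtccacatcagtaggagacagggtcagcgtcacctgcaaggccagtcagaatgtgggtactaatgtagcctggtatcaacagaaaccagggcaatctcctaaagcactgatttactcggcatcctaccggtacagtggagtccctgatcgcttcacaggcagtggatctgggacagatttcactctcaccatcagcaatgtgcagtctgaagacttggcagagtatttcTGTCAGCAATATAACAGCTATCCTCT
Igkv1-117 (chr6:68121528-68121827, + strand): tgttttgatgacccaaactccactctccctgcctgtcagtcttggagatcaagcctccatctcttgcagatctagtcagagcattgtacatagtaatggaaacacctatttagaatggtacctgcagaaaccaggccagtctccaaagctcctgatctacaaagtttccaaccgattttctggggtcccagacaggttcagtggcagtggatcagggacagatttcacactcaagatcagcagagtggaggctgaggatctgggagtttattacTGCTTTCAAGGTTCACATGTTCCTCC
Igkv1-110 (chr6:68270968-68271267, + strand): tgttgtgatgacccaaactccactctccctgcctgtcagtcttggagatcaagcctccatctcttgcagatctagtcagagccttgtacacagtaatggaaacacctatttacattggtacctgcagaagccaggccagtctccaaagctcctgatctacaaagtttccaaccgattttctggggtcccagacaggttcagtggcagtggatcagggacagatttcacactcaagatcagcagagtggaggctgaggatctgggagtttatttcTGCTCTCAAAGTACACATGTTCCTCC
Igkv5-48 (chr6:69726573-69726870, - strand): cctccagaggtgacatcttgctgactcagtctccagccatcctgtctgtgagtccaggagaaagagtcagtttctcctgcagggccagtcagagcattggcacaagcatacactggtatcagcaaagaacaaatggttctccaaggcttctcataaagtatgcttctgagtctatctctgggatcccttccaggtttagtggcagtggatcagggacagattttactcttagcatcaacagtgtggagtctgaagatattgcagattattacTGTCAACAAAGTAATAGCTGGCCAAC
Igkv1-122 (chr6:68017189-68017488, + strand): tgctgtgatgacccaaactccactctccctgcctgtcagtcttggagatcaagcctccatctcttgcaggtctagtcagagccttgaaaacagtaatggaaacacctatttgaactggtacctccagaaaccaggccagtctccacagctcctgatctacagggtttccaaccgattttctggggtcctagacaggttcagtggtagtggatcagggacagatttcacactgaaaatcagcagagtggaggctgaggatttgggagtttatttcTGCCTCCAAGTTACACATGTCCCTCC
The exons of Igkv1-117 and Igkv1-110 were 96.8% identical, and those of Igkv1-110 and Igkv1-122 were 92.7% identical. Igkv1-135 was 80.2% identical to Igkv1-110, and its nearest member, Igkv1-133 at 96.5%, had only 1, 0 and 0 counts in CTL and 0, 0 and 2 in Prdm1-CKO Tfh.

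The last 30 bases before the cysteine codon, with the same capitals, are shown for 5 more genes. Igkv15-103 and Igkv16-104, the only members of their families, had high shares, and Igkv14-130, Igkv8-34 and Igkv4-74 were each counted in 1 mouse alone. Positions are those of the whole exon.
Igkv15-103 (chr6:68437628-68437925, + strand): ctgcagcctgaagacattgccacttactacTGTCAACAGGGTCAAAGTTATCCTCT
Igkv16-104 (chr6:68425774-68426072, + strand): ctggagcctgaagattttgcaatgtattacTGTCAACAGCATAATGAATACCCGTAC
Igkv14-130 (chr6:67791214-67791511, + strand): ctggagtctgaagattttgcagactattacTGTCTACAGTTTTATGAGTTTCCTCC
Igkv8-34 (chr6:70044112-70044427, - strand): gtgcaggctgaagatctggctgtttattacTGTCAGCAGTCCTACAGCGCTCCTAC
Igkv4-74 (chr6:69184826-69185134, - strand): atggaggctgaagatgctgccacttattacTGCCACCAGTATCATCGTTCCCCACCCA
Near copies bear on how far a count belongs to 1 gene. Cut into words of the read length, 25 bases, the median Igkv gene had 44.1% of its words in no other annotated transcript, and 56 of the 100 genes had under 50%. The share was 30.8% for Igkv1-110, 33.7% for Igkv1-117, 33.8% for Igkv1-135 and 50.5% for Igkv6-15. It was 96.9% for Igkv15-103, 97.7% for Igkv16-104, 99.4% for Igkv5-48 and 63.0% for Igkv1-122. How reads with several alignments were counted is not given in the sources used here, so the division of counts among near copies is uncertain.

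Igkv RNA was present in all 6 Tfh libraries. The 100 genes summed to 5491, 1790 and 3297 counts in CTL replicates 1 to 3 and to 5355, 5770 and 8800 in Prdm1-CKO replicates 1 to 3. In CPM, counts scaled to the TMM-adjusted library size, the sums were 376, 212 and 488 in CTL and 302, 587 and 603 in Prdm1-CKO Tfh. Prdm1-CKO replicates 2 and 3 were the highest of the 6, Prdm1-CKO replicate 1 lay within the CTL range, and the groups overlapped. The means were 359 ± 139 CPM (SD, n = 3) in CTL and 497 ± 169 CPM (SD, n = 3) in Prdm1-CKO Tfh. The difference in log2 CPM was 0.49, smaller than the pooled SD of 0.59, and leaving out a mouse gave 0.15 (CTL replicate 2), 0.75 (CTL replicate 3), 0.81 (Prdm1-CKO replicate 1) or 0.31 (Prdm1-CKO replicate 3). In such bulk samples, fewer cells that carry the RNA and less RNA per cell cannot be told apart. The 60 Igkv pseudogenes together had between 0 and 15 counts per library.

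Igkv counts kept close to a fixed ratio with the constant exon. The ratio of Igkv to Igkc counts was 0.420, 0.418 and 0.451 in CTL and 0.422, 0.403 and 0.433 in Prdm1-CKO Tfh. Its highest value was 1.12-fold its lowest, while the Igkv level itself spanned 2.84-fold over the mice and the Igkc level 2.87-fold. The ratio of Igkj to Igkc counts spanned 1.15-fold. Against other B-lineage genes the Igkv ratio was wider: 1.38-fold for the heavy chain V genes (Ighv), 1.54-fold for Jchain, which links IgM and IgA polymers, and 1.97-fold for the IgM constant gene Ighm. It spanned 2.85-fold against the lambda V genes (Iglv) and 3.37-fold against Cd79a, a signalling subunit of the B cell receptor.

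**Figure D1:**
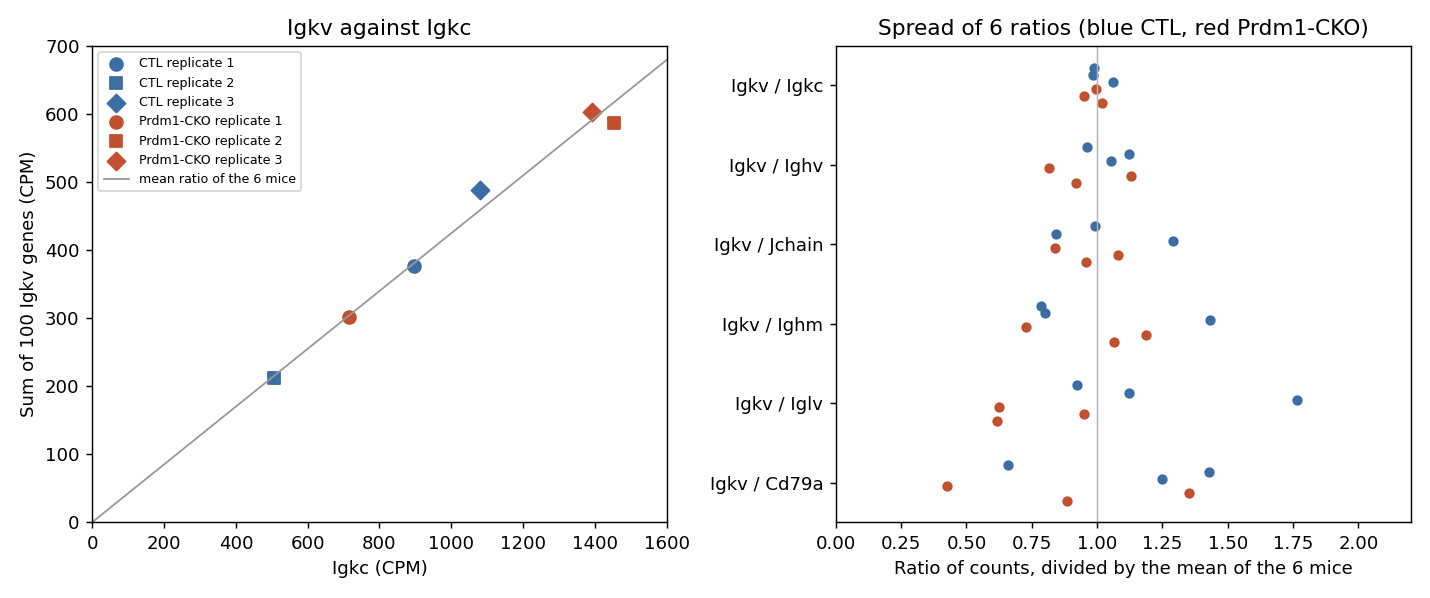
Left, summed CPM of the 100 Igkv genes against Igkc CPM, 1 point per mouse, with a line at the mean ratio of the 6 mice. Right, the ratio of Igkv counts to the counts of 6 other genes or gene groups, each divided by its mean over the 6 mice. Igkv per Igkc stays within 1.12-fold, and Igkv per Cd79a spans 3.37-fold.

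The genes whose log2 CPM over the 6 mice was most like that of the Igkv sum were looked for among the 14505 tested genes outside the family. The 5 with the highest Pearson r were Gzmm (0.997), which encodes a granzyme, Igkc (0.996), Igkj2 (0.994), A430110L20Rik (0.992) and Scamp2 (0.990), a secretory carrier membrane protein. These r are descriptions over 6 mice, and 46 of the 14505 genes had an r over 0.95.

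Marker genes of antibody-making cells were also counted in every library. The 10 B cell genes summed to 125, 90.4 and 76.6 CPM in CTL and to 169, 102 and 153 CPM in Prdm1-CKO Tfh, so the groups overlapped. Fcer2a, Blnk, Fcrla, Pax5 and Ebf1 were at 0 in CTL replicate 2, and no B cell gene was at 0 in another library. The 10 plasma cell genes, which include Jchain, summed to between 735 and 968 CPM in CTL and between 980 and 1204 CPM in Prdm1-CKO Tfh. These sums did not overlap, but CTL replicate 3 at 968 and Prdm1-CKO replicate 1 at 980 CPM lay close together. Taken singly, 2 of the 10 genes had every Prdm1-CKO mouse above every CTL mouse and 0 had every one below. Over all genes tested these shares were 4.56% and 3.86%. Irf4, Xbp1 and Prdm1, which are on this list, are also expressed in T cells. Sdc1 and Tnfrsf17, markers of plasma cells, were at 0 in CTL replicate 2, which had the lowest Igkv level. All other genes of the plasma cell list were counted in that library. Jchain had 2146 counts there, or 254 CPM, which was also its lowest level in any library. The 0 counts of Sdc1 and Tnfrsf17 thus do not show that plasma cell RNA was missing from CTL replicate 2. The part of B or plasma cell RNA in the Igkv results was not tested.

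Each mouse had its own leading Igkv genes. In CTL replicate 1, Igkv1-135 took 16.1% of the Igkv counts (exact binomial 95% interval 15.2% to 17.1%), followed by Igkv1-110 at 5.72% and Igkv4-86 at 5.61%. In CTL replicate 2, Igkv6-15 took 15.9% (14.3% to 17.7%), Igkv1-117 13.4% and Igkv12-89 8.94%. In CTL replicate 3, Igkv6-15 again led at 10.9% (9.85% to 12%), ahead of Igkv15-103 at 6.43% and Igkv16-104 at 6.01%. The lead thus fell to the same gene in only a pair of the CTL mice.

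In Prdm1-CKO replicate 1, Igkv1-135 led at 16.9% (15.9% to 18.0%), with Igkv15-103 at 9.86% and Igkv1-117 at 9.60%. In Prdm1-CKO replicate 2, Igkv1-117 led at 8.25% (7.55% to 8.99%), with Igkv1-110 at 7.24% and Igkv15-103 at 6.52%. In Prdm1-CKO replicate 3, Igkv16-104 led at 8.42% (7.85% to 9.02%), with Igkv3-4 at 6.23% and Igkv8-30 at 5.58%. No gene led in all mice of a group, and Igkv1-135 led in 1 mouse of each group. With counts divided by exon length, the leading gene was the same in each mouse. These intervals cover counting error only, since the reads carry no molecular identifiers. They also take each count as separate. How mates were counted is not given, so the intervals may be too narrow even for counting error.

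**Figure D2:**
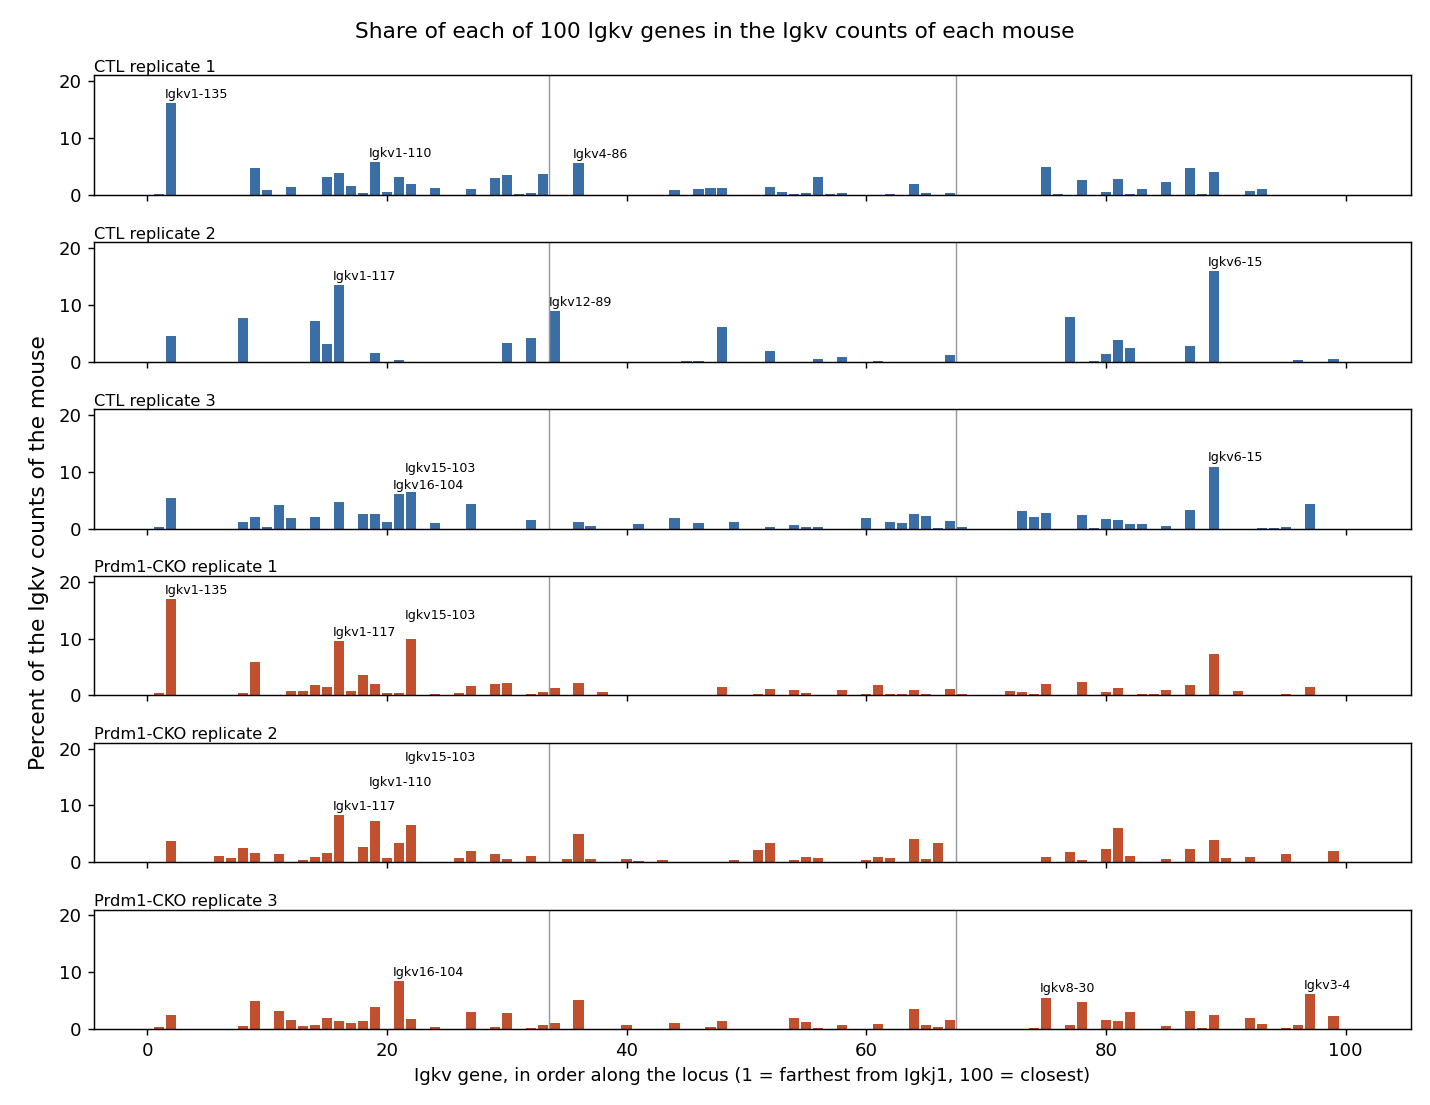
Each of the 6 panels is 1 mouse (blue CTL, red Prdm1-CKO), and each bar is the percent of that mouse's Igkv counts taken by 1 of the 100 genes, ordered along the locus from the farthest from Igkj1 to the closest, with gray lines at the borders of the 3 segments. The 3 highest bars of each mouse are named, from 16.9% for Igkv1-135 in Prdm1-CKO replicate 1 down to 5.58% for Igkv8-30 in Prdm1-CKO replicate 3.

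The top gene's share was 14.3% ± 2.96 (SD, n = 3) in CTL and 11.2% ± 4.96 (SD, n = 3) in Prdm1-CKO Tfh, a difference of -3.11 percentage points against a pooled SD of 4.08. Leaving out a mouse gave -4.82 (CTL replicate 3), -5.97 (Prdm1-CKO replicate 1), -1.64 (Prdm1-CKO replicate 2) or -1.73 (Prdm1-CKO replicate 3) percentage points. The effective number of Igkv genes, the inverse of the summed squared shares, was 18.8, 12.2 and 24.8 in CTL and 15.6, 26.8 and 28.5 in Prdm1-CKO Tfh. The groups overlapped in this number as well, and the difference of means was 5.02 against a pooled SD of 6.66. This difference fell to 1.82 in the absence of CTL replicate 2 and to 2.58 in that of Prdm1-CKO replicate 3, and it reached 8.11 in the absence of CTL replicate 3 and 9.03 in that of Prdm1-CKO replicate 1. The genes needed to reach 50% of the counts numbered 9, 5 and 10 in CTL and 6, 10 and 11 in Prdm1-CKO Tfh. The 10 highest genes of a mouse took from 49.0% in Prdm1-CKO replicate 3 to 79.5% in CTL replicate 2.

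**Figure D3:**
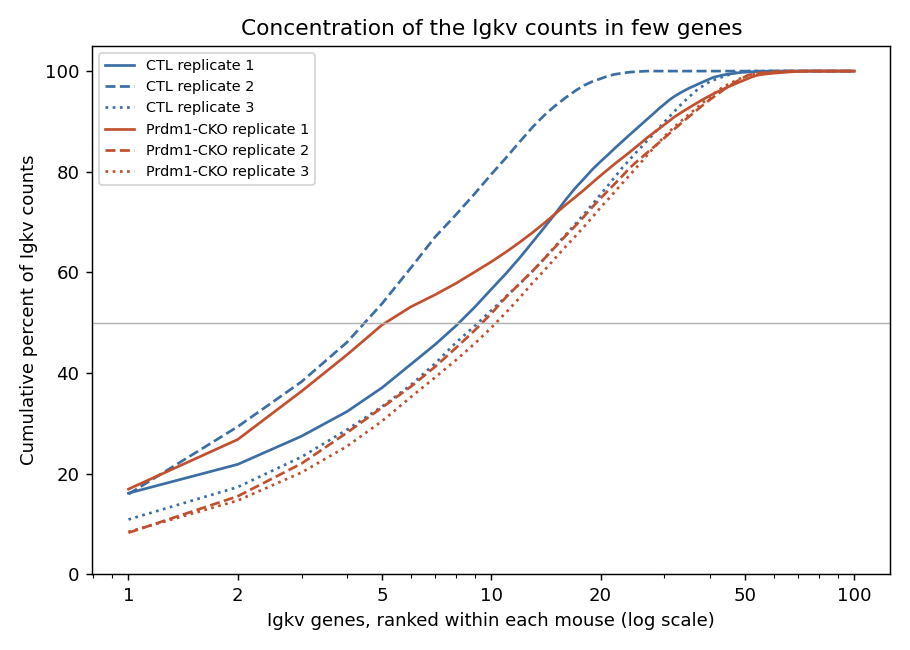
Cumulative percent of Igkv counts (vertical axis) over the Igkv genes ranked from highest to lowest within each mouse (horizontal log axis), 1 line per mouse, blue for CTL and red for Prdm1-CKO. The line of CTL replicate 2 crosses 50% at 5 genes and the other lines at 6 to 11 genes.

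The number of Igkv genes with a count was 59, 27 and 51 in CTL and 74, 66 and 71 in Prdm1-CKO Tfh. Detection depends on the number of counts, so the expected number of genes was also computed at 1790 Igkv counts, the total of the shallowest mouse. At that depth it was 52.3, 27.0 and 50.2 in CTL and 65.0, 60.1 and 61.2 in Prdm1-CKO Tfh. All 3 Prdm1-CKO mice were thus above all 3 CTL mice, also with CTL replicate 2 left out and the depth kept at 1790. The computation takes each count as a separate draw. It therefore adjusts for the number of counts, and not for the number of cells or RNA molecules behind them. With 3 mice a group, the smallest two-sided p of an exact permutation test is 0.1. At least 10 counts were found in 43, 21 and 41 genes in CTL and in 54, 51 and 53 genes in Prdm1-CKO Tfh.

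Over the 6 mice, Igkv1-135 had the highest mean share of Igkv counts at 8.19% ± 6.53 (SD, n = 6), followed by Igkv6-15 at 7.40% ± 5.16 (SD, n = 6) and Igkv1-117 at 6.85% ± 4.39 (SD, n = 6). Igkv15-103, Igkv1-110, Igkv16-104, Igkv14-126, Igkv4-86, Igkv6-17 and Igkv8-24 came next, with mean shares from 4.44% down to 2.83%. No neighbours in this order differed beyond their SD. The same 10 genes ranked highest per exon length, where Igkv6-15 came before Igkv1-135 and Igkv16-104 before Igkv1-110. Together the 10 genes held from 35.5% to 57.4% of a mouse's Igkv counts.

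The same gene could be high in a mouse and nearly missing in another. Igkv16-104 had 175, 6 and 198 counts in CTL and 20, 192 and 741 in Prdm1-CKO Tfh. Its level was 0.711 CPM in CTL replicate 2 and 50.7 CPM in Prdm1-CKO replicate 3, a 71.4-fold range. Igkv15-103 had 106, 0 and 212 counts in CTL and 528, 376 and 166 in Prdm1-CKO Tfh. It was the only gene of the 5 with the highest mean share to be missing from a library, CTL replicate 2. Igkv6-17 was the steadiest of the 10 genes, with shares from 1.91% to 4.64% and a range of levels of 3.40-fold.

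Igkv1-110 and Igkv1-117, whose exons are near copies, did not keep a fixed order. Igkv1-110 had 314, 28 and 82 counts in CTL and 104, 418 and 344 in Prdm1-CKO Tfh. Igkv1-117 had 206, 240 and 152 counts in CTL and 514, 476 and 128 in Prdm1-CKO Tfh. Igkv1-110 was the higher of the pair in CTL replicate 1 and in Prdm1-CKO replicate 3, and Igkv1-117 in the other mice.

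Igkv12-89 was among the leading genes in 1 mouse alone, with 0, 160 and 0 counts in CTL and 68, 0 and 92 in Prdm1-CKO Tfh. It took 8.94% of the Igkv counts in CTL replicate 2 and 1.27% or less in each other mouse. Igkv3-4 had 0, 0 and 141 counts in CTL and 79, 8 and 548 in Prdm1-CKO Tfh, and its share was 6.23% in Prdm1-CKO replicate 3. Igkv3-4 lies near the end of the locus closest to Igkj1, and Igkv12-89 lies in its middle segment.

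By family, the 10 Igkv1 genes took the largest mean share, 19.3% (8.41% to 29.4% over the mice), of which 8 had a count. The 26 Igkv4 genes, the largest family, took 13.9% (8.96% to 20.1%), and all 26 had a count. The 9 Igkv6 genes took 13.9% (9.32% to 22.5%) and the 10 Igkv8 genes 10.9% (8.10% to 13.95%). Igkv17, with 2 genes, ranged from 0.04% in CTL replicate 1 to 14.8% in CTL replicate 2. Igkv3 ranged from 0.78% in CTL replicate 2 to 12.2% in Prdm1-CKO replicate 3. The groups overlapped in all 20 families.

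By position, the 33 genes farthest from Igkj1 took 50.4% of the Igkv counts on average (42.1% to 63.1%), the 34 in the middle 19.8% (14.8% to 26.1%) and the 33 closest 29.8% (22.1% to 36.6%). The middle segment had the smallest share in all 6 mice except Prdm1-CKO replicate 2, where it took 26.1% and the closest segment 25.2%. The 38 genes that read in the direction of Igkc took 49.6% (42.9% to 60.5%) and the 62 in the opposite direction 50.4%. The groups overlapped in each of these shares. Among the J segments, Igkj1 took 23.8% to 37.8% of the Igkj counts, Igkj2 20.7% to 33.3%, Igkj4 8.59% to 22.7% and Igkj5 23.2% to 35.1%. Igkj3, known as a nonfunctional J segment in mice, took at most 0.37%.

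The overlap of 2 mice was taken as the sum, over genes, of the lower of both shares. It was 31.1%, 34.7% and 46.5% for the 3 pairs of CTL mice, 49.4%, 51.7% and 51.9% for the 3 pairs of Prdm1-CKO mice, and 28.7% to 60.5% (median 52.9%) for the 9 pairs across groups. Neither group had a median above that of the pairs across groups. The 5 pairs that include CTL replicate 2 lay between 28.7% and 39.7%, and the other 10 pairs between 46.5% and 60.5%. The highest overlap was between CTL replicate 1 and Prdm1-CKO replicate 1. CTL replicate 2 and Prdm1-CKO replicate 3 shared 0 of their 10 highest genes, and the most that any pair shared was 6.

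Of the 100 genes, 15 had a count in all 6 mice, and 8 of these had at least 10 counts in each. These 15 genes held 30.9% to 61.1% of a mouse's Igkv counts. Another 22 genes had a count in 5 mice, 12 in 4, 18 in 3, 18 in 2 and 10 in 1 mouse. The 5 genes without a count in any mouse were Igkv1-132, Igkv1-99, Igkv20-101-2, Igkv10-95 and Igkv3-3. The highest level of a gene was found in Prdm1-CKO replicate 3 for 27 genes, in Prdm1-CKO replicate 2 for 21, in CTL replicates 1 and 3 for 16 each, in Prdm1-CKO replicate 1 for 9 and in CTL replicate 2 for 6.

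A gene was called private to a mouse when it had at least 10 counts there and 0 in each of the other 5 mice. This held for 3 Igkv genes, or 3.16% of the 95 with a count, against 0.438% of all 26045 genes with a count. Igkv14-130 had 60 counts (6.10 CPM) and Igkv4-74 had 22 counts (2.24 CPM) in Prdm1-CKO replicate 2. Igkv8-34 had 42 counts (2.37 CPM) in Prdm1-CKO replicate 1. All 3 private genes were thus in Prdm1-CKO mice, and none took over 1.04% of its mouse's Igkv counts. Igkv14-130 and Igkv8-34 had 86.0% and 85.9% of their words in no other transcript, and Igkv4-74 had 26.2%. Igkv8-34 is 87.3% identical to Igkv8-30, and Igkv4-74 is 93.9% identical to Igkv4-78, which had at most 3 counts per mouse. By words, Igkv4-74 shared the most, 45.4%, with Igkv4-61. That gene had 125 counts in Prdm1-CKO replicate 2, the mouse to which Igkv4-74 was private, so the 22 counts may not all belong to Igkv4-74.

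Between the groups, 12 Igkv genes were at 0 counts throughout CTL while a Prdm1-CKO mouse had at least 10, or 12.63% of the 95, against 0.630% of all genes with a count. In the other direction the number was 2, or 2.11%, against 0.361%. The groups were not equally deep, with 10578 Igkv counts in CTL and 19925 in Prdm1-CKO Tfh. At the pooled Prdm1-CKO level, the 12 genes would have had from 15.5 to 95.4 counts over the 3 CTL libraries. These values describe the choice of genes, which asked for counts in a Prdm1-CKO mouse and 0 in CTL. For several of the genes they rest mostly on 1 mouse, so they do not settle the effect of depth. Besides the 3 private genes and Igkv1-122, the 12 were Igkv4-61, Igkv4-80, Igkv9-129, Igkv6-14, Igkv6-13, Igkv12-98, Igkv1-88 and Igkv13-84. Of these 12, Igkv4-61 was the highest in a single mouse, with 10, 125 and 0 counts in Prdm1-CKO replicates 1 to 3. The 2 genes in the other direction were Igkv4-70, with 58, 1 and 34 counts in CTL, and Igkv11-125, with 48, 0 and 8. When mice were left out 1 at a time, the 12 became from 7 (without Prdm1-CKO replicate 2) to 23 (without CTL replicate 3), with 19 in the absence of CTL replicate 1. Over all genes with a count the share was then 0.471%, 1.01% and 2.83%. The 2 became from 1 (without CTL replicate 1) to 5 (without Prdm1-CKO replicate 2), where all genes had 0.321% and 0.506%.

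For the test of Prdm1-CKO against CTL Tfh, 50 of the 100 genes passed the expression filter of edgeR, and 45 genes with a count did not. In edgeR's quasi-likelihood test, 0 of the 50 genes had an adjusted p under 0.05, as was the case for 0.00% of all 14555 genes tested, and no Igkv gene came below 0.996. By unadjusted p under 0.05, 4 Igkv genes were higher in Prdm1-CKO Tfh, or 8% of the 50, against 0.928% of all genes tested. In the same test 0 Igkv genes were lower, against 1.42% of all genes tested. The filter asks for 0.836 CPM in at least 3 mice, so it set these counts in part. Of the 50 genes, 30 reached that level in more Prdm1-CKO than CTL mice and 6 in more CTL mice. Igkv5-48 and Igkv1-122 reached it in 3 Prdm1-CKO and 0 CTL mice and Igkv3-7 in 3 and 1, while Igkv4-70 reached it in 2 CTL mice alone and was not tested in edgeR. The 4 to 0 count and its share are thus a description of the genes that passed. DESeq2's Wald test gave 12 higher and 2 lower of 94 Igkv genes at an unadjusted p under 0.05, against 1.01% and 1.60% of all genes. At an adjusted p under 0.05, DESeq2 gave 3 Igkv genes, Igkv5-48 and Igkv1-122 higher and Igkv4-70 lower, against 0.0531% of all genes. Only 14.4% of the words of Igkv4-70 were in no other transcript, and 54.6% were shared with Igkv4-59, which had a count in every mouse. With a mouse left out, edgeR gave 11 Igkv genes higher and 0 lower of 57 without CTL replicate 3, against 2.14% and 3.94% of all genes tested then. Without CTL replicate 1 it gave 8 and 2 of 58, against 3.94% and 3.24%, and without CTL replicate 2 it gave 9 and 4 of 66, against 1.43% and 0.879%. Without Prdm1-CKO replicate 1 the numbers were 7 and 2 of 60, against 0.683% and 0.724%. They were 2 and 3 of 59 without Prdm1-CKO replicate 2, against 0.494% and 1.19%, and 3 and 2 of 58 without Prdm1-CKO replicate 3, against 0.394% and 0.788%. The same filter chose the genes of each of these fits.

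The log2 fold change was above 0 for 31 of the 50 genes, or 62%, against 51.1% of all genes tested. Its median was 0.50 over the 50 Igkv genes and 0.01 over all genes tested. Single Igkv genes varied widely between mice of the same group, with a median within-group SD of 2.34 in log2 CPM against 0.40 over all genes tested. All Prdm1-CKO mice exceeded all CTL mice for 3 of the 50 genes, or 6%, against 4.56% of all genes tested. The reverse held for 0 of the 50, against 3.86%. With a mouse left out, fewer mice have to be kept apart, and the shares over all genes tested were between 7.62% and 13.5% above and between 6.15% and 11.5% below. The Igkv numbers were then 6 above and 3 below of 58 (CTL replicate 1 left out), 5 and 4 of 66 (CTL replicate 2) and 11 and 0 of 57 (CTL replicate 3). They were 12 and 1 of 60 (Prdm1-CKO replicate 1 left out), 6 and 2 of 59 (Prdm1-CKO replicate 2) and 5 and 1 of 58 (Prdm1-CKO replicate 3). The median log2 fold change of the Igkv genes was 0.72, 0.15 and 0.92 when CTL replicates 1 to 3 were left out in turn and 0.72, 0.25 and -0.12 when Prdm1-CKO replicates 1 to 3 were, and it was 0.87 with the replicate number as a block.

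**Figure D4:**
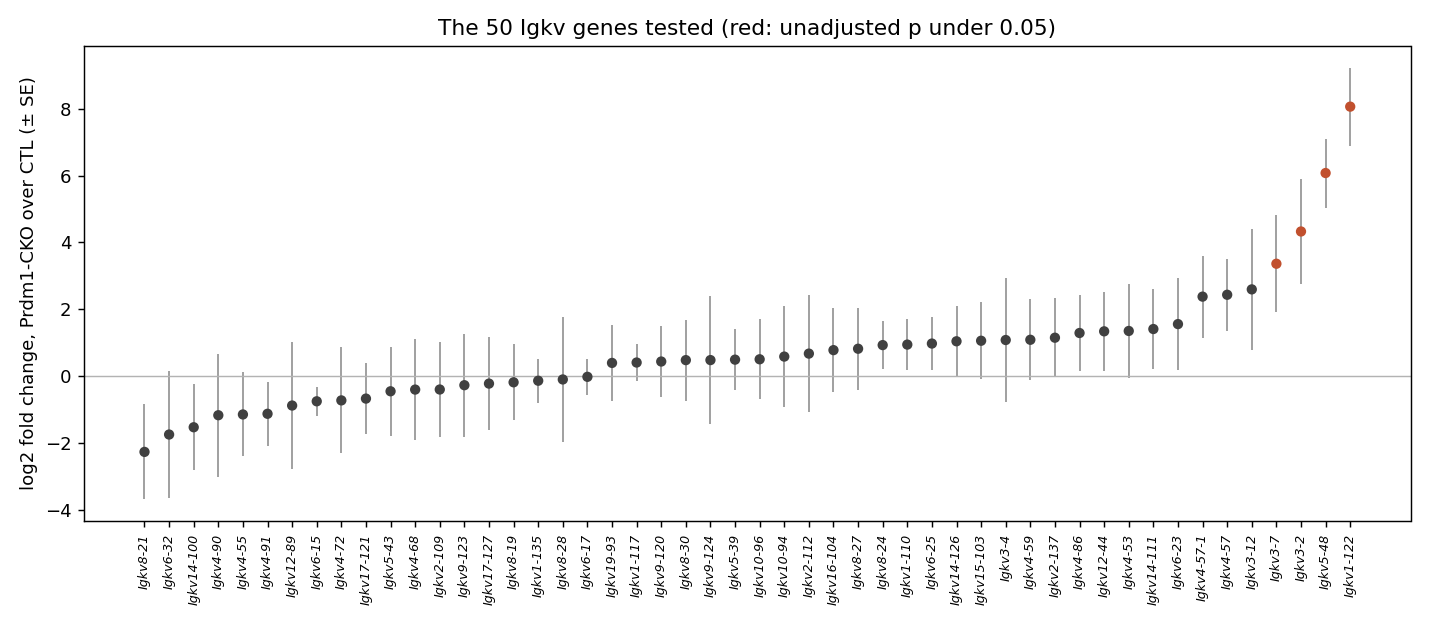
Log2 fold change of Prdm1-CKO over CTL Tfh with its standard error (vertical axis) for the 50 Igkv genes tested in edgeR, in order of size. The 4 red points had an unadjusted p under 0.05. The fitted value of 8.07 for Igkv1-122, whose CTL counts were all 0, depends on the default prior count of edgeR's fit.

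Igkv5-48 had 0, 2 and 0 counts in CTL and 100, 54 and 79 in Prdm1-CKO Tfh, or 5.63, 5.49 and 5.41 CPM in the latter. All 3 Prdm1-CKO mice were at nearly the same level, far above each CTL mouse. The ratio of the pooled counts per scaled library was 82.3, with an exact 95% interval of 22.5 to 684 for counting error. Its log2 fold change was 6.08 (SE 1.03, unadjusted p = 0.000332, adjusted p = 0.996 in edgeR, adjusted p = 0.000814 in DESeq2). In edgeR without the filter its adjusted p was 0.0928, so only DESeq2 put it under 0.05. Igkv5-48 entered the filtered edgeR test only through the Prdm1-CKO mice. A difference was thus a condition of its being tested, and its p in that fit is a description. The ratio and its interval are descriptions too, since they pool the mice and were computed only for genes high in Prdm1-CKO and near 0 in CTL. The interval also takes each count as separate. Igkv5-48 lies in the middle segment, 995.4 kb from Igkj1, and its nearest member, Igkv5-45, had 0, 0 and 34 counts in CTL and 16, 2 and 2 in Prdm1-CKO Tfh.

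Igkv1-122 had 0, 0 and 0 counts in CTL and 44, 24 and 50 in Prdm1-CKO Tfh, or 2.48, 2.44 and 3.42 CPM. No CTL mouse had a count, and all 3 Prdm1-CKO mice did. With each CTL library at the floor of 3 counts, or 0.335 CPM on average, Prdm1-CKO Tfh had at least an 8.30-fold higher level. In edgeR the unadjusted p was 0.000397 and the adjusted p 0.996, and the adjusted p in DESeq2 was 0.00373. In edgeR without the filter the adjusted p was 0.09997. Igkv1-122 too passed the edgeR filter only through the Prdm1-CKO mice, and the same limit holds for its p in the filtered fit. The 8.30-fold bound was computed only for genes at 0 in CTL with a count in every Prdm1-CKO mouse, so it is a description as well. Igkv1-122 shares 25.6% of its words with Igkv1-110, which had counts in every CTL mouse.

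Igkv3-2 had 1, 10 and 0 counts in CTL and 4, 111 and 198 in Prdm1-CKO Tfh, with a log2 fold change of 4.33 (SE 1.56, unadjusted p = 0.0236 and adjusted p = 0.996 in edgeR). Prdm1-CKO replicate 1, at 0.225 CPM, lay below CTL replicate 2, at 1.18 CPM, so the groups overlapped. Its unadjusted p was between 0.0597 and 0.0712 when CTL replicate 1, CTL replicate 3, Prdm1-CKO replicate 2 or Prdm1-CKO replicate 3 was left out of the edgeR fit.

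Igkv3-7 had 1, 0 and 7 counts in CTL and 17, 84 and 14 in Prdm1-CKO Tfh. CTL replicate 3, at 1.04 CPM, lay above Prdm1-CKO replicates 1 and 3, at 0.958 and 0.959 CPM. The log2 fold change of Igkv3-7 was 3.36 (SE 1.45, unadjusted p = 0.0478, adjusted p = 0.996 in edgeR), and it was 1.49 (unadjusted p = 0.365) without Prdm1-CKO replicate 2 and 2.82 (unadjusted p = 0.0824) without CTL replicate 2. Igkv4-57 had 21, 0 and 8 counts in CTL and 27, 53 and 112 in Prdm1-CKO Tfh, with every Prdm1-CKO mouse above every CTL mouse in CPM. Its log2 fold change was 2.43 (SE 1.07, unadjusted p = 0.0524 in edgeR), and the unadjusted p was 0.0118 in DESeq2.

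In the lower direction no Igkv gene passed the edgeR test. Igkv6-15 had the smallest p, with 14.8, 33.8 and 53.1 CPM in CTL and 21.8, 23.3 and 14.9 CPM in Prdm1-CKO Tfh. The Prdm1-CKO mice lay within the CTL range, and the log2 fold change was -0.76 (SE 0.44, unadjusted p = 0.120 in edgeR), or -1.14 (unadjusted p = 0.00893) without CTL replicate 1. Igkv8-21, Igkv14-100, Igkv4-91 and Igkv6-32 came next, with log2 fold changes of -2.27, -1.53, -1.13 and -1.75 and unadjusted p from 0.148 to 0.383 in edgeR. Igkv6-32 had 67 of its CTL counts in replicate 3 and 0 in the other CTL mice, and Igkv8-21 and Igkv14-100 were at 0 in CTL replicate 2.

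**Figure D5:**
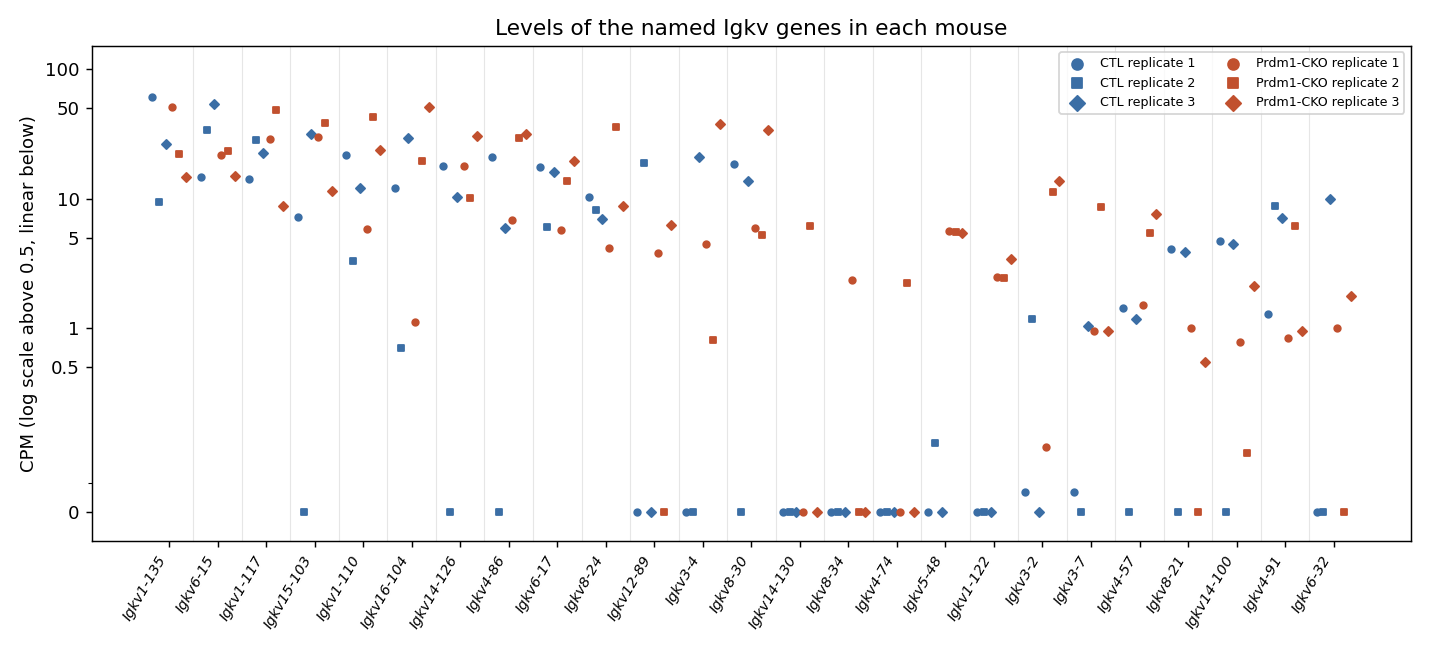
Level of each named Igkv gene in CPM (vertical axis, log above 0.5 and linear below) in each of the 6 mice, with blue CTL and red Prdm1-CKO points and a marker shape for each replicate number. In Igkv5-48, Igkv1-122 and Igkv4-57 every red point lies above every blue point, and the other genes show overlapping groups.

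The leading genes did not separate the groups. Igkv1-135 had 885, 80 and 178 counts in CTL and 906, 218 and 214 in Prdm1-CKO Tfh, with 1 high mouse in each group. Its log2 fold change was -0.14 (SE 0.66, unadjusted p = 0.838 in edgeR), and it was 0.70 (unadjusted p = 0.308) without CTL replicate 1. Igkv1-117 had a log2 fold change of 0.40 (SE 0.55), Igkv15-103 of 1.06 (SE 1.15), Igkv1-110 of 0.94 (SE 0.77) and Igkv16-104 of 0.78 (SE 1.25). Igkv14-126, Igkv4-86, Igkv6-17 and Igkv8-24 had log2 fold changes from -0.02 to 1.29, and all 8 of these genes had unadjusted p above 0.22 in edgeR.

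The other antibody genes give the setting of these values. Of the kappa J and constant genes, 5 were tested in edgeR and 0 passed an unadjusted p under 0.05, with a median log2 fold change of 0.62. Igkc had a log2 fold change of 0.52 (SE 0.33, unadjusted p = 0.155). Of the lambda light chain genes, 6 of 8 tested were higher in Prdm1-CKO Tfh at an unadjusted p under 0.05 and 0 lower, with a median of 1.32. Over all genes tested, 0.928% were higher and 1.42% lower. The lambda list holds V, J and constant genes that are joined in the same transcripts, so the 6 are not separate results. The lambda constant gene Iglc1 had 930, 124 and 311 counts in CTL and 2267, 825 and 2560 in Prdm1-CKO Tfh, with a log2 fold change of 1.63 (SE 0.49, unadjusted p = 0.0100). Kappa took 72.3%, 76.0% and 83.3% of the kappa and lambda V counts in CTL and 63.9%, 72.9% and 63.6% in Prdm1-CKO Tfh, and the groups overlapped at 72.3% and 72.9%. Of 6 heavy chain constant genes tested, 1 was higher, Ighd, the constant gene of IgD, and 0 were lower.

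Of 4 tested genes for light chain rearrangement and receptor assembly, 0 passed, and Rag1 and Rag2, which cut the DNA for V to J joining, had 0 counts in every library. Of 12 factors of kappa transcription, Spi1, which encodes PU.1, was higher and Pou2af1, a coactivator in B cells, was lower at an unadjusted p under 0.05. Of the marker lists, 0 of 10 B cell genes passed in either direction, with a median log2 fold change of 1.02. Of 10 plasma cell genes, Jchain was higher and Pou2af1 lower. For Jchain the groups overlapped, with Prdm1-CKO replicate 1 below CTL replicates 1 and 3 in CPM. Of 10 Tfh genes, Cd4 was lower, with a log2 fold change of -0.29 (SE 0.12, unadjusted p = 0.0465 in edgeR). Of 9 macrophage genes tested, C1qc, a complement subunit, and Cd5l, a secreted macrophage protein, were higher. The 10 macrophage genes summed to 1413, 473 and 737 CPM in CTL and to 1260, 1017 and 1440 CPM in Prdm1-CKO Tfh, so the groups overlapped. At an unadjusted p under 0.05 in edgeR, 0.928% of all genes tested were higher and 1.42% lower, and the list counts are to be read beside these shares. In these lists 0 genes had an adjusted p under 0.05 in edgeR.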

How the data were processed

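Splenic Tfh RNA of 3 CTL and 3 Prdm1-CKO mice was made into Smart-seq2 libraries and sequenced as paired reads of 25 bases. The submitters' processing notes name STAR 2.4.2a, GRCm38.p6 and DESeq2. The authors deposited raw counts per gene, made with featureCounts on a GENCODE mouse annotation; strandedness, handling of multiple alignments and counting of mates are not given in the sources used here. Identifiers were matched to GENCODE M21 (53274 of 53379). Total counts per library were 7147601 to 16973392, which puts the floor of 3 counts at 0.169 to 0.444 CPM, for counting error only. Of the nonzero Igkv counts, 62.9% were even, against 57.7% of other genes' counts up to 100.

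Counts were tested with edgeR 4.0.16 in R 4.3.3 (TMM, filterByExpr, quasi-likelihood F test, two-sided, no covariate), with Benjamini-Hochberg adjustment over the 14555 genes tested. The fit kept edgeR's default prior count, and a prior count of 2 was used only for the log2 CPM of single genes. DESeq2 1.42.0 was an alternative. Shares, rarefied gene numbers, overlaps and 25-base words were computed in Python 3.11.15, with intervals from scipy 1.17.1. The fit was run on simulated data with known changes and the same dispersion for all genes. The Igkv genes varied far more between mice than most genes, so this run does not bear on the Igkv tests. Named genes were the 10 with the highest mean share, the 3 highest in each mouse, the private genes, and the 5 higher and 5 lower with the smallest p, plus genes with at least 10 counts in every mouse of one group and at most 3 in every mouse of the other. The other members named were chosen after their values were seen. The members, lists and tests were chosen with earlier results of these data known. Same-numbered CTL and Prdm1-CKO mice had correlations of their deviations of 0.158, 0.028 and 0.016, so the numbers were not treated as pairs. A gene of the B cell list is not reported here by itself and stays in every fit and sum.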

Additional observations from a re-analysis of the deposited data

How the results depend on the processing

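In edgeR no Igkv gene had an adjusted p under 0.05 under any alternative, while DESeq2's Wald test gave 2 higher and 1 lower. By unadjusted p under 0.05, DESeq2 gave 12 higher and 2 lower, and edgeR without the filter 18 higher and 2 lower of 95 (1.64% and 1.96% of all genes), in place of 4 and 0. Without the filter all Prdm1-CKO mice were above CTL for 6 genes and below for 1 (4.51% and 2.57% of all genes), in place of 3 and 0. With at most 1 count allowed in each other mouse, 5 genes were private in place of 3. This looser rule can only add genes, of any kind, and the number is given without the share over all genes. It is thus not a result about the Igkv genes. With each mouse left out, the numbers ran from 2 to 11 higher, 0 to 4 lower, 5 to 12 above without overlap and 0 to 4 below, 3 to 8 private, 7 to 23 at 0 in CTL and 1 to 5 at 0 in Prdm1-CKO Tfh. The private share over all genes with a count then ran from 0.280% to 0.759%.

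With the replicate number as a block, 5 Igkv genes were higher and 0 lower (1.20% and 1.35% of all genes), the log2 fold change became 0.01 for Igkv1-135, 3.33 for Igkv12-89 and 0.31 for Igkv6-32, from negative values, and no other named gene turned direction. Igkv3-7 no longer passed (unadjusted p = 0.105 in edgeR) and Igkv3-4 did (unadjusted p = 0.0495 in edgeR). Over all genes, the block gave 175 higher and 196 lower in place of 135 and 207.

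With a mouse left out, the log2 fold change in edgeR ran from -0.80 to 0.70 for Igkv1-135, -0.18 to 0.84 for Igkv1-117, -0.45 to 1.87 for Igkv16-104, -0.44 to 0.34 for Igkv6-17 and -0.39 to 1.4 for Igkv8-24. It ran from -1.67 to 8.44 for Igkv12-89, -1.36 to 10.55 for Igkv3-4, -0.93 to 1.11 for Igkv8-30 and -2.57 to 6.64 for Igkv6-32. For the named genes, 204 of the values under alternatives kept direction and side of the threshold, 7 lost it, 11 passed it anew and 17 turned direction; the cause was not tested. Where no filter was used or a mouse was left out, other genes were tested as well. Genes with few counts, and near copies that share words, set the limit of what these libraries resolve.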
